A study of Bos taurus with 22 samples.

Results

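LIMD2 and PTPRCAP are leukocyte genes that were picked out of the 27570 genes of the deposited tables, 2 genes in all, because their counts were lower in the jejunal mucosa of steers infused with casein. Both were thus selected on the measured difference between casein and water, and their values in the casein comparisons are given as a description with no test. PTPRC, CD3E and MS4A1, a pan-leukocyte, a T cell and a B cell gene, are set beside them in the same steers.

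LIMD2 encodes a small protein made of little more than a LIM domain, which has been shown to bind integrin-linked kinase in tumour cells, and its transcript is abundant in lymphocytes. PTPRCAP encodes a transmembrane phosphoprotein of lymphocytes, also called CD45-AP, that associates with CD45. CD45, the product of PTPRC, is the receptor tyrosine phosphatase found on all nucleated blood cells, and it acts on Src family kinases such as LCK in antigen receptor signalling. CD3E is a chain of the T cell receptor complex and MS4A1 encodes CD20, a surface protein of B cells. The small intestinal mucosa of cattle holds T cells in the epithelium and lamina propria and B cells in lymphoid follicles, so leukocyte transcripts in scraped mucosa come from several compartments.

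RNA sequencing had been carried out on the jejunal mucosa of 22 Holstein steers aged 10 to 12 months, 1 library per steer, from 200 mg of scraped mucosa. For 7 d every steer received starch into the abomasum (raw corn, 3.94 g per kg of body weight per day). The control steers (n = 5) had water with the starch and injections of the bovine serum albumin (BSA) vehicle under the skin, and the GLP-2 steers (n = 5) had water and glucagon-like peptide 2 in that vehicle at 100 µg/kg per day. The casein steers (n = 6) had sodium caseinate at 1.30 g/kg per day and the vehicle, and the casein + GLP-2 steers (n = 6) had both. Steers had been assigned within 6 blocks of body weight, and the replicate numbers used here are these block numbers. A further GLP-2 steer was not analysed here, and the study left a control sample unsequenced because of low RNA integrity. The RNA integrity of single libraries was not used here. All animals were steers of a single breed given starch, so no group without starch infusion stands behind these values.

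Library totals ranged from 8809666 to 28447810 counts with a median of 12028560.5. Summed over 18 villus enterocyte markers, the mucosal libraries held 3766 to 126444 CPM (read counts per library put on an equal footing for depth), and 14 of 15 pan-leukocyte markers had counts. The remaining one, CD52, was at 0 in all 22 libraries. Summed over 12 smooth muscle markers, the libraries held 80.7 to 1735 CPM.

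On ARS-UCD1.2, the build of the deposited tables, LIMD2 (ENSBTAG00000008154) lies on the minus strand of chromosome 19 from base 47975191 to 47977056, with an exon length of 1375 bases. No other annotated gene overlaps it, and the nearest are MAP3K3, 1406 bases away, and STRADA, 2676 bases away. PTPRCAP (ENSBTAG00000004782) lies on the minus strand of chromosome 29 from base 45327237 to 45330137, with an exon length of 1653 bases. Its span shares 338 bases with CORO1B on the same strand and 689 bases with RPS6KB2 on the opposite strand. Depending on how overlaps were counted, some reads at its ends could be assigned to either gene or left out. The counts of PTPRCAP are uncertain to that extent. For the 2 neighbours, the log2 fold change between casein and water was -0.18 ± 0.131 (SE) for CORO1B and -0.05 ± 0.166 for RPS6KB2, and between GLP-2 and BSA it was -0.00 ± 0.136 and -0.12 ± 0.160. The span of CD3E lies within that of MPZL2 on the opposite strand, and that of PTPRC holds 2 small genes on the opposite strand.

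Per length, LIMD2 was expressed at about the level of PTPRC. Its mean over the 22 steers was 103 ± 52.6 (SD) in FPKM, the deposited unit scaled by gene length and library size, which ranked 867 of 15086 genes, against 102 ± 35.6 FPKM and rank 872 for PTPRC. CD3E had 129 ± 43.4 FPKM and rank 674. PTPRCAP had 22.7 ± 13.5 FPKM and rank 3715, and MS4A1 had 27.2 ± 53.2 FPKM and rank 3159, so MS4A1 alone of the 5 had an SD above its mean.

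LIMD2 was highest in the control steers. Its normalized level in control replicates 1 to 5 was 231.6, 158.4, 376.0, 166.1 and 268.7 CPM (240 ± 88.8, SD, n = 5). In the casein steers, replicates 1 to 6, it was 110.1, 100.3, 132.5, 133.9, 131.5 and 120.1 CPM (121 ± 13.8, n = 6). Every casein steer lay below every control steer, in 30 of 30 pairs of steers, and the control mean was 1.98 times the casein mean. Of 15086 genes, 17 (0.113%) had every casein steer below every control steer, and since LIMD2 was chosen for this difference the count is given as its setting only. The spread also differed, with a coefficient of variation of 37.0% in the control and 11.4% in the casein steers.

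In the GLP-2 steers, replicates 1, 3, 4, 5 and 6, LIMD2 was at 124.8, 124.1, 162.7, 140.3 and 83.6 CPM (127 ± 29.0, n = 5). In the casein + GLP-2 steers, replicates 1 to 6, it was at 87.6, 78.5, 69.2, 90.6, 134.7 and 93.3 CPM (92.3 ± 22.6, n = 6). These groups overlapped, with the GLP-2 steer higher in 24 of 30 pairs. The casein and GLP-2 means were close to each other, and 18 of 30 pairs of these steers had the GLP-2 steer higher. In the order of the treatment means, control was followed by GLP-2, casein and casein + GLP-2. The control mean exceeded the other 3 by more than its SD, whereas GLP-2 and casein differed by less than the SD of the GLP-2 steers. Casein + GLP-2 lay below casein by more than its own SD, and 5 of its 6 steers lay below every casein steer. Every casein + GLP-2 steer also lay below every control steer, which held for 184 of 15086 genes (1.22%). Both groups entered the contrast that chose LIMD2, so this count too is given as its setting only.

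PTPRCAP was likewise highest in the control steers, but in the remaining groups it followed another order. The control steers had 40.0, 67.6, 111.6, 34.9 and 73.0 CPM (65.4 ± 30.7, n = 5) and the casein steers 18.5, 10.4, 26.9, 27.3, 34.9 and 26.8 CPM (24.1 ± 8.50, n = 6). The control steer was higher in 29 of 30 pairs, and the groups touched only where control replicate 4 and casein replicate 5 both had 34.9 CPM. The control mean was 2.71 times the casein mean.

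The GLP-2 steers had 21.1, 42.7, 41.6, 33.6 and 29.5 CPM of PTPRCAP (33.7 ± 8.93, n = 5), and the casein + GLP-2 steers had 37.2, 36.2, 27.6, 31.3, 33.9 and 21.3 CPM (31.2 ± 5.97, n = 6). These 2 groups overlapped throughout, with the GLP-2 steer higher in 17 of 30 pairs. The treatment means thus ran from control through GLP-2 and casein + GLP-2 to casein, and the last 3 lay within 10 CPM of each other. Casein + GLP-2 was above casein in 29 of 36 pairs, the reverse of the order of LIMD2. Control replicates 3 and 5 had the highest levels of both genes, whereas the lowest of all was casein replicate 2 for PTPRCAP and casein + GLP-2 replicate 3 for LIMD2.

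**Figure D1:**
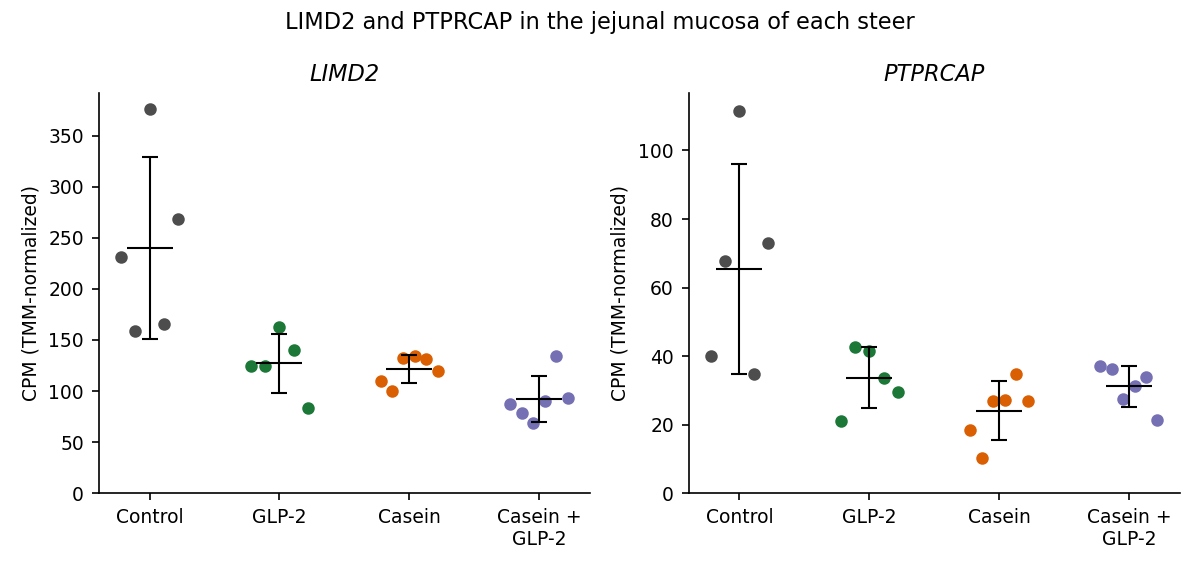
CPM (TMM-normalized) of LIMD2 and PTPRCAP in each steer by treatment; each point is a steer, the long bar is the mean and the whiskers are ± 1 SD (n = 5, 5, 6 and 6). For LIMD2 the control steers sit between 158 and 376 CPM, above all casein steers; for PTPRCAP the control steers reach 112 CPM and the other 3 treatments end at 42.7 CPM.

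Between the pooled casein (n = 12) and water (n = 10) steers, the contrast that chose both genes, the log2 fold change was -0.80 ± 0.210 (SE) for LIMD2 and -0.86 ± 0.253 for PTPRCAP. In the same fit, edgeR called 0 of 14096 genes at an adjusted p of 0.05 (0%), with 474 at an unadjusted p of that size, while the DESeq2 Wald test called 5 and limma on the FPKM values called 0. Within the vehicle steers, casein against control gave -0.98 ± 0.216 for LIMD2 and -1.44 ± 0.294 for PTPRCAP. Within the steers given GLP-2, casein + GLP-2 against GLP-2 gave -0.46 ± 0.215 and -0.11 ± 0.292. Of the 22 steers left out in turn from the pooled contrast, control replicate 3 moved it most, to -0.61 for LIMD2 and -0.63 for PTPRCAP. The 2 contrasts within an injection were not refitted without a steer.

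Within the body weight blocks, LIMD2 was lower with casein than control in 5 of 5 blocks with both steers (median log2 difference -1.03) and lower with casein + GLP-2 than GLP-2 in 4 of 5 (median -0.51). PTPRCAP was lower in 5 of 5 blocks (median -1.10) and in 3 of 5 (median -0.41).

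PTPRC and CD3E did not share this order. PTPRC had 361.7, 670.6, 329.4, 327.2 and 332.1 CPM in control replicates 1 to 5 and 105.7, 368.4, 615.5, 451.6, 191.9 and 472.1 CPM in casein replicates 1 to 6. It had 383.5, 324.9, 314.4, 225.1 and 285.7 CPM in the GLP-2 steers and 332.8, 589.9, 443.3, 472.6, 440.3 and 380.3 CPM in the casein + GLP-2 steers. Its highest mean was that of casein + GLP-2 (443 ± 87.8 CPM), where LIMD2 was lowest, and the casein steers spanned nearly the whole range of PTPRC.

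CD3E had 535.7, 633.8, 270.2, 371.1 and 318.4 CPM in the control steers and 161.6, 570.5, 272.0, 405.9, 240.8 and 415.9 CPM in the casein steers. In the GLP-2 steers it had 228.8, 339.0, 326.3, 247.7 and 293.7 CPM, and in the casein + GLP-2 steers 314.9, 503.3, 340.6, 285.2, 281.1 and 370.8 CPM. Its ranges overlapped between all 4 treatments, and control replicate 3, the steer with the highest LIMD2, had the lowest CD3E of the control steers. Between casein and water the log2 fold change was 0.19 ± 0.230 for PTPRC and -0.04 ± 0.205 for CD3E, neither past the threshold (edgeR, adjusted p = 0.994 and 0.995).

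MS4A1 varied far more between steers than any of these genes. The control steers had 324.4, 0.8, 292.9, 28.1 and 181.3 CPM and the casein steers 35.2, 22.1, 365.8, 2.1, 10.1 and 5.6 CPM. The GLP-2 steers had 5.2, 1.4, 4.5, 2.2 and 1.9 CPM and the casein + GLP-2 steers 2.6, 2.7, 0.4, 5.0, 9.4 and 2.2 CPM. All steers given GLP-2 were below 10 CPM, and among the vehicle steers MS4A1 ran from under 1 to 366 CPM. The 3 control steers with the most LIMD2 were the 3 with the most MS4A1, but casein replicate 3, with the highest MS4A1 of all, had 132.5 CPM of LIMD2, and control replicate 2, with the lowest MS4A1 of the vehicle steers, had 158.4 CPM. Between casein and water its log2 fold change was -1.13 ± 1.13 (edgeR, adjusted p = 0.994).

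**Figure D2:**
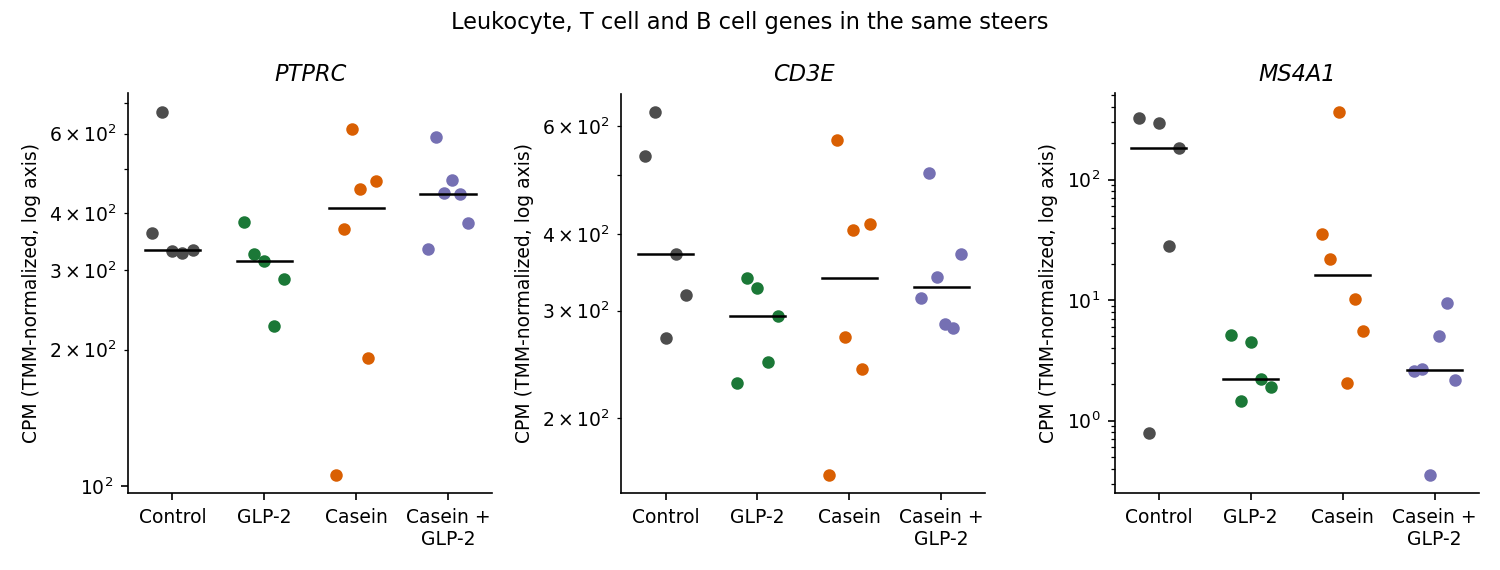
CPM (TMM-normalized, log axes) of PTPRC, CD3E and MS4A1 in each steer by treatment; each point is a steer and the bar is the median (n = 5, 5, 6 and 6). PTPRC and CD3E overlap between all treatments, whereas all 11 steers given GLP-2 have under 10 CPM of MS4A1.

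The comparison of GLP-2 with BSA, pooled over the infusions (n = 11 and 11), was not itself the contrast that chose the genes. It uses the same 22 steers, however, and the high control steers enter it and the casein contrast alike. Its values and p are thus not fully independent of the choice. Without control replicate 3, which moved the casein difference of LIMD2 most, the GLP-2 difference was weakest as well (-0.53, adjusted p = 0.0780 in edgeR). LIMD2 fell with GLP-2, from 175 ± 84.2 to 108 ± 30.3 CPM, a log2 fold change of -0.71 ± 0.217 (edgeR, adjusted p = 0.0369), with the steer given GLP-2 lower in 96 of 121 pairs. The call was 1 of 2 genes, where 13.5% of the 13928 genes tested were called and 8.37% were called lower. PTPRCAP went from 42.9 ± 29.6 to 32.4 ± 7.17 CPM, a log2 fold change of -0.40 ± 0.290 that did not pass the threshold (edgeR, adjusted p = 0.324). In a permutation test of log2 CPM (2-sided, 100000 resamples) p was 0.00703 for LIMD2 and 0.624 for PTPRCAP, or 0.0844 and 0.681 after adjustment over the 12 comparisons of that kind, so the call for LIMD2 rests on the fit across all genes.

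The call of LIMD2 was near the threshold. With the body weight block as a term its log2 fold change was -0.69 (edgeR, adjusted p = 0.0559). Leaving out each steer in turn kept the direction in all 22 fits and the call in 12, with log2 fold changes from -0.78 to -0.53 and adjusted p from 0.0237 to 0.0780 in edgeR. The call was lost without control replicate 1, 3 or 5, GLP-2 replicate 3 or 6, or casein + GLP-2 replicate 1, 2, 3, 4 or 6. Without control replicate 3 the fold change of PTPRCAP was -0.15.

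Of the genes set beside them, MS4A1 fell with a log2 fold change of -5.10 ± 0.887 (edgeR, adjusted p = 0.0171), while PTPRC had -0.02 ± 0.231 and CD3E -0.25 ± 0.199 (adjusted p = 0.969 and 0.385). The sign of PTPRC turned with the block as a term and in limma on FPKM values.

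Among the steers infused with water, GLP-2 against control gave -0.92 ± 0.227 for LIMD2 (unadjusted p = 0.000539, adjusted p = 0.142 in edgeR) and -0.95 ± 0.308 for PTPRCAP (adjusted p = 0.210). In this contrast edgeR called 0 of 15086 genes (0%) and 2103 were at an unadjusted p of 0.05 or less. The exact permutation test (2-sided, smallest possible p 0.00794) gave p = 0.0159 for LIMD2 and 0.0635 for PTPRCAP, or 0.0952 and 0.127 adjusted over 12. Among the casein steers, casein + GLP-2 against casein gave -0.40 ± 0.206 for LIMD2 (edgeR, adjusted p = 0.236) and 0.37 ± 0.280 for PTPRCAP (adjusted p = 0.408). Here too 0 genes were called (0%), and 3637 were at an unadjusted p of 0.05 or less. GLP-2 against control uses the control steers, and casein + GLP-2 against casein the casein steers, whose difference entered the choice of the genes. The values and p of both contrasts are thus not independent of that choice, and they are read as a description.

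The interaction of casein and GLP-2, positive where the GLP-2 difference is less negative with casein, was 0.52 ± 0.305 (SE) for LIMD2 and 1.32 ± 0.416 for PTPRCAP. It is also the difference between the 2 casein differences, so it contains the control and casein values that chose both genes, and it is given for them as a description with no test. Called were 0 of 15086 genes by edgeR (0%), 2 by DESeq2 and 0 by limma, with 645 (4.28%) at an unadjusted p of at most 0.05 in edgeR and 1.68% so and positive. For PTPRC, CD3E and MS4A1 the interaction was 0.67, 0.59 and 1.45, none past the threshold.

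**Figure D3:**
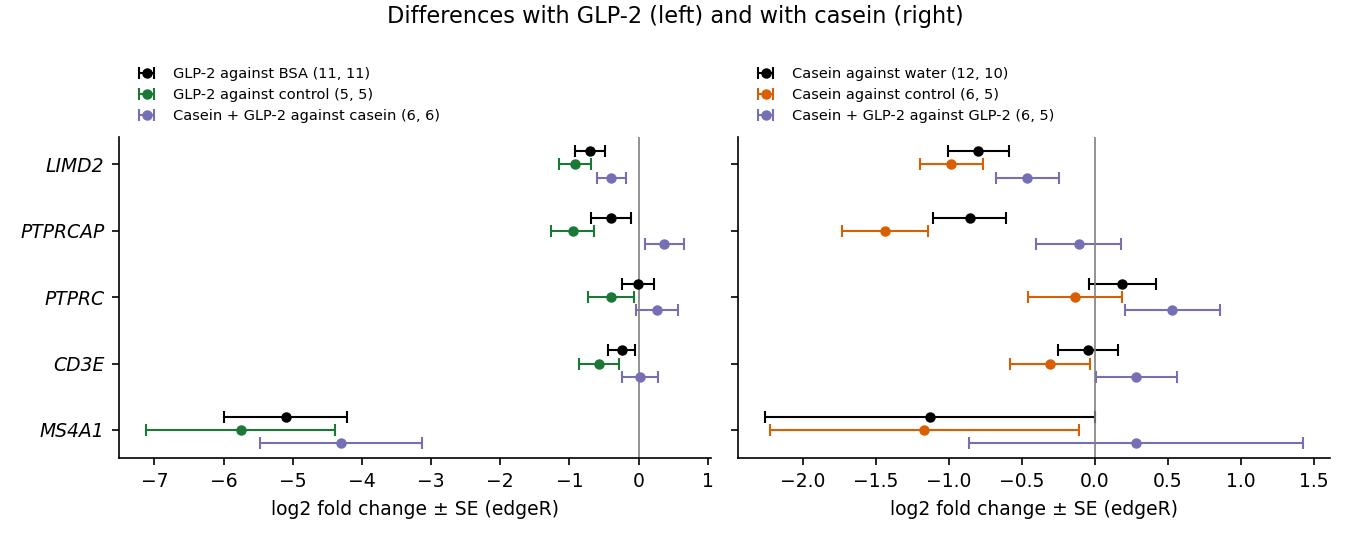
Log2 fold changes ± SE (edgeR) of LIMD2, PTPRCAP, PTPRC, CD3E and MS4A1 with GLP-2 (left) and with casein (right), pooled and within each level of the other factor, with the numbers of steers in brackets; the 2 panels have different scales. With casein, LIMD2 lies at -0.98, -0.80 and -0.46 and PTPRCAP at -1.44, -0.86 and -0.11, and with GLP-2, MS4A1 lies at -5.75 to -4.30.

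Relative to PTPRC, a single pan-leukocyte gene, LIMD2 and PTPRCAP kept a wide spread. With casein PTPRC had a log2 fold change of 0.19, whereas 13 of the 14 pan-leukocyte genes tested were negative (median -0.28). A ratio to PTPRC is thus not a ratio to leukocytes as a whole. Bulk libraries cannot tell fewer cells of a type from less RNA per cell. Per 100 FPKM of PTPRC, LIMD2 had 181 ± 91.7 FPKM in the control, 116 ± 37.7 in the GLP-2, 125 ± 90.4 in the casein and 58.6 ± 18.1 in the casein + GLP-2 steers. On this ratio the casein steers no longer stood apart from the control steers, with control replicate 2 at 64.1 FPKM per 100, casein replicates 1 and 5, which had the least PTPRC, at 283 and 186, and the other 4 casein steers at 58.4 to 80.5. PTPRCAP had 39.6 ± 23.4, 25.8 ± 8.36, 20.5 ± 15.5 and 16.3 ± 4.62 FPKM per 100 of PTPRC in the same order. Between GLP-2 and BSA the log2 ratio of LIMD2 to PTPRC differed by -0.72 (permutation p = 0.0489, 0.127 adjusted over 12) and that of PTPRCAP by -0.25 (permutation p = 0.509, 0.611 adjusted).

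The ratio of both members to each other differed between treatments in its median. PTPRCAP had a median of 22.6 FPKM per 100 of LIMD2 in the control, 21.3 in the GLP-2, 16.9 in the casein and 30.9 in the casein + GLP-2 steers, with ranges of 14.3 to 35.5, 14.1 to 29.4, 8.60 to 22.1 and 19.0 to 38.3. The casein and casein + GLP-2 steers overlapped only between 19.0 and 22.1.

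**Figure D4:**
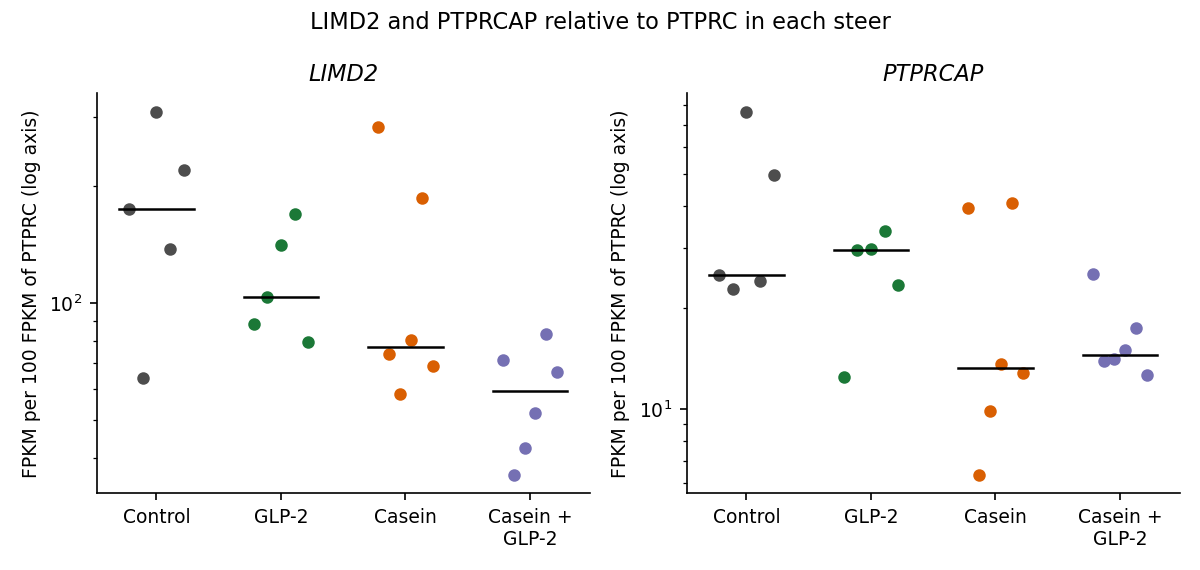
FPKM of LIMD2 (left) and PTPRCAP (right) per 100 FPKM of PTPRC in each steer (log axes) by treatment; each point is a steer and the bar is the median. In the casein group 2 steers lie at 283 and 186 for LIMD2 and the other 4 between 58.4 and 80.5, and for PTPRCAP the same 2 steers lie highest.

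After the treatment means had been removed, LIMD2 and PTPRCAP had r = 0.52 over the 22 steers (rho = 0.50, permutation p = 0.0255 and 0.0386), which did not pass the adjustment over 21 relations (0.179 and 0.162). Without the 2 steers farthest from the median r was 0.43, and it was 0.68 among the vehicle and 0.26 among the GLP-2 steers. LIMD2 had r = -0.09 with PTPRC (rho = -0.15, permutation p = 0.614 and 0.502) and r = -0.39 with CD3E (rho = -0.43, permutation p = 0.0720 and 0.0686). Of the 10 measures set against LIMD2, the largest r was with the B cell score, the average of that list on the log2 CPM scale (r = 0.62, rho = 0.65, permutation p = 0.00290 and 0.00346), and this did not pass the adjustment over the 21 relations (0.0609 and 0.0727). Without the 2 farthest steers r was 0.65, and it was 0.66 and 0.84 within the vehicle and the GLP-2 steers. For PTPRCAP the values were near 0 with the B cell score (r = 0.13, rho = 0.07, permutation p = 0.683 and 0.793) and with PTPRC (r = 0.06, rho = -0.01, permutation p = 0.844 and 0.982).

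For LIMD2 the correlation with MS4A1 alone was 0.55 (rho = 0.51, permutation p = 0.0201 and 0.0324, adjusted 0.179 and 0.162; 0.48 without the 2 farthest steers). With the enterocyte score it was -0.51 (rho = -0.57, adjusted permutation p = 0.228 and 0.162) and with the smooth muscle score 0.52 (rho = 0.53, adjusted permutation p = 0.228 and 0.162). With the library total LIMD2 had r = -0.01 (rho = -0.08, permutation p = 0.964 and 0.740) and with body weight r = 0.19 (rho = 0.26, permutation p = 0.415 and 0.267). PTPRCAP had r = 0.26 (rho = 0.34, permutation p = 0.274 and 0.151) with the library total, and r = 0.11 (rho = 0.23, permutation p = 0.681 and 0.374) with CORO1B, whose span it overlaps. Without the 2 farthest steers r was 0.06 and 0.09. Within the vehicle and the GLP-2 steers it was 0.01 and 0.72 with the library total, and -0.10 and 0.55 with CORO1B. With the smooth muscle score PTPRCAP had r = 0.11 (rho = 0.12, permutation p = 0.708 and 0.648), and 0.39 and -0.72 within those groups. The values within the vehicle or the GLP-2 steers were not tested.

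**Figure D5:**
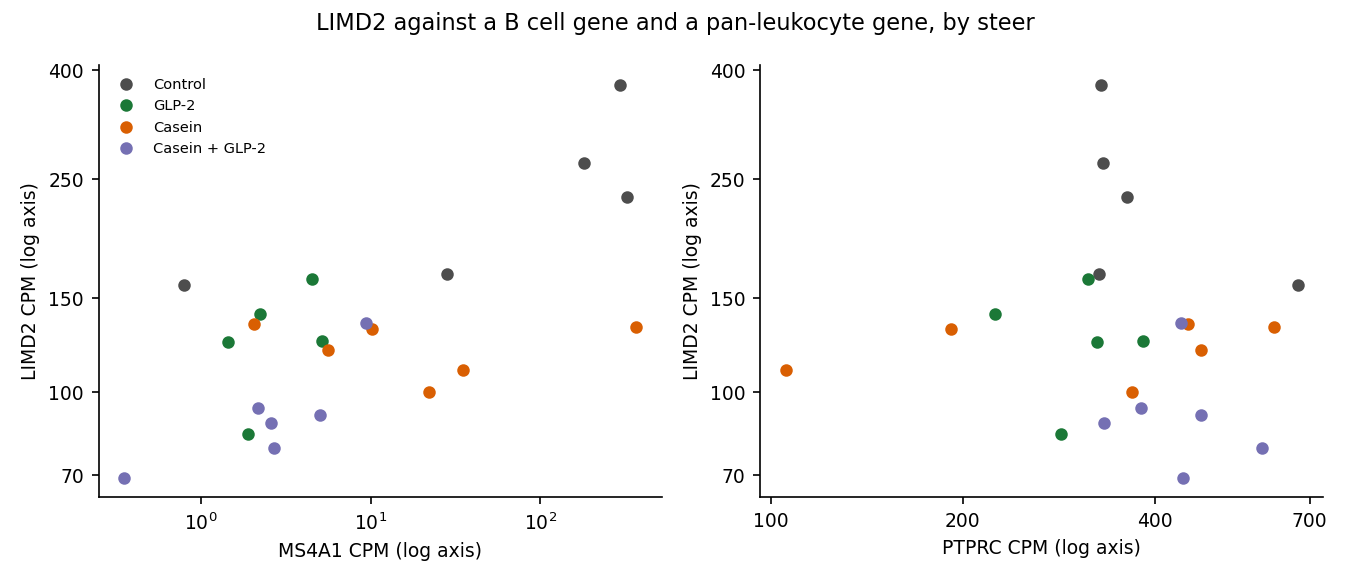
CPM of LIMD2 in each of the 22 steers against that of MS4A1 (left) and PTPRC (right), all log axes, with colours for the treatments. The 3 control steers with over 200 CPM of LIMD2 lie at 181 to 324 CPM of MS4A1, and no trend is visible against PTPRC (r = -0.09 with the treatment means removed).

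The genes most like LIMD2 over the steers, by the Spearman correlation of log2 CPM with the treatment means removed (n = 22 steers of shared libraries), were KAT14 (rho = 0.89), a subunit of a histone acetyltransferase complex, MDFI (0.89), an inhibitor of myogenic factors, TNK2 (0.89), a tyrosine kinase, TEX264 (0.89), a receptor in autophagy of the endoplasmic reticulum, and CNN2 (0.88), an actin-binding calponin. None of these is a marker on the leukocyte lists used here. PTPRCAP ranked 2214 and MS4A1 2130 in likeness to LIMD2, PTPRC 9392 and CD3E 12208 of the 15086 genes. For PTPRCAP the closest were IER2 (0.81), an immediate early gene, KLHL22 (0.77), an adaptor of a ubiquitin ligase, ALKBH5 (0.75), an RNA demethylase, PRAG1 (0.75), a pseudokinase, and DAPL1 (0.74). LIMD2 ranked 263 in likeness to PTPRCAP. The genes named as closest were picked as the highest among the 15086 genes in only 22 steers. Their correlations were not tested against the height that such a pick reaches by chance.

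Of the 10 lists, the B cell genes had the lowest median with GLP-2. Of 17 B cell genes tested, 14 fell with GLP-2 and 0 rose, where 8.37% of all genes fell (median log2 fold change -2.85, against 0.01 over all genes tested). CR2, a complement receptor of B cells and follicular dendritic cells, fell with a log2 fold change of -5.68, CD79A and CD79B, the signalling chains of the B cell receptor, with -3.40 and -5.09, and MS4A1 with -5.10 (edgeR, adjusted p = 0.0171 for all 4). CR2 had 111 ± 160 CPM in the vehicle and 2.21 ± 1.65 CPM in the GLP-2-injected steers. The summed level of the list was 199 to 2787 CPM in the control, 180 to 2406 in the casein, 162 to 215 in the GLP-2 and 165 to 232 in the casein + GLP-2 steers, and no listed B cell gene was at 0 in all libraries. The vehicle steers were uneven. The B cell score was 5.88, 6.77 and 5.91 in control replicates 1, 3 and 5 and 6.51 in casein replicate 3. In control replicate 2 and casein replicates 4 and 6 it was 1.52, 1.94 and 2.08, within the 0.96 to 2.94 of all steers given GLP-2. The other vehicle steers had 2.87 to 3.87. With the B cell score as a term in the fit, the GLP-2 difference was -0.15 (edgeR, adjusted p = 0.999) for LIMD2 and 0.02 for PTPRCAP, and the casein differences of -0.80 and -0.86 became -0.52 and -0.69. With that term edgeR called 0 genes between GLP-2 and BSA, against 1881 without it. The mean score was 1.94 in the GLP-2 and in the casein + GLP-2 steers, 4.79 in the control and 3.32 in the casein steers. Score and GLP-2 thus vary together, and this fit cannot tell them apart for any gene. With casein, 0 of the 17 were called by edgeR, 1 were at an unadjusted p of 0.05 or less, and all 17 had a negative fold change (median -0.72).

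Of 14 pan-leukocyte genes tested, 4 fell with GLP-2 and 0 rose (median -0.33), where 8.37% of all genes fell. Among these were CD37, a tetraspanin, from 92.1 ± 46.2 to 48.2 ± 10.97 CPM (log2 fold change -0.94), CORO1A, an actin regulator of leukocytes, from 578 ± 314 to 339 ± 68.8 CPM (-0.78), and CD48, an adhesion receptor, from 113 ± 38.4 to 74.9 ± 15.3 CPM (-0.60), with adjusted p from 0.0237 to 0.0326 in edgeR. With casein 0 were called by edgeR and 3, all lower, were at an unadjusted p of 0.05 or less (1.84% of all genes were so and lower), while 13 of 14 fold changes were negative (median -0.28). CORO1A had means of 791 CPM in the control, 358 in the GLP-2, 401 in the casein and 323 in the casein + GLP-2 steers, the order of LIMD2 apart from GLP-2 and casein. All 14 interaction values were positive, 0 were called by edgeR and 6 were at an unadjusted p of 0.05 or less, as were 4.28% of all genes (1.68% so and positive).

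Of 20 T cell genes, 3 fell with GLP-2 (median -0.20), not far from the 8.37% of all genes that fell. They were ICOS, a costimulatory receptor (log2 fold change -0.69), CD5, a regulator of receptor signalling (-0.58), and LAT, an adaptor of the T cell receptor (-0.39), with adjusted p from 0.0259 to 0.0481 in edgeR. LCK, the kinase on which CD45 acts, had -0.45 ± 0.180 (adjusted p = 0.0872). With casein 0 of the 20 were called by edgeR, 1 were at an unadjusted p of 0.05 or less, and 11 of 20 had a negative value (median -0.01).

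The CD45 substrate kinases and their regulators went both ways. Of 16, 3 fell with GLP-2 and 3 rose (median -0.19), where 8.37% of all genes fell and 5.13% rose. CD22, an inhibitory receptor of B cells that is also on the B cell list, fell with a log2 fold change of -2.52, as did PTPN6, a phosphatase that CD22 recruits (-0.44), and CSK, the kinase that opposes CD45 (-0.40). PAG1, an adaptor that brings CSK to the membrane (1.18), YES1, a Src family kinase of many tissues (0.77), and SKAP2, an adaptor (0.64), rose. With casein 0 of the 16 were called by edgeR and 0 were at an unadjusted p of 0.05 or less (median -0.06).

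The list around integrin-linked kinase, the known partner of LIMD2, and the leukocyte integrins also held both directions. Of 17 genes, 2 fell with GLP-2, LIMS2 (log2 fold change -1.32), an adaptor of the kinase, and PARVG (-0.41), its parvin in blood cells, and PXN, the focal adhesion scaffold paxillin, rose (0.53; adjusted p from 0.0318 to 0.0497 in edgeR). These counts are near the shares of all genes, of which 8.37% fell and 5.13% rose. ITGB1, an integrin chain, had 0.29 ± 0.118 (adjusted p = 0.0894). The kinase itself, ILK, had 0.09 with GLP-2 and -0.17 with casein. With casein 0 of the 17 were called by edgeR and 0 were at an unadjusted p of 0.05 or less (median -0.04).

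The remaining leukocyte lists held 6 calls, where 8.37% of all genes fell and 5.13% rose, and the single calls of the cytotoxic and the macrophage list are near those shares. Of 12 plasma cell genes 4 fell with GLP-2 (median -1.02), namely TNFRSF17, a survival receptor (-2.28), DERL3, of endoplasmic reticulum quality control (-1.78), CD27, a receptor of memory and plasma cells (-1.34), and TXNDC5, a disulfide isomerase (-1.07). Of the 12 fold changes 9 were negative. Those of XBP1 (0.17), SDC1 (0.19) and PRDM1 (0.01) were positive, none past the threshold (edgeR, adjusted p from 0.447 to 0.972). Of 13 cytotoxic and intraepithelial lymphocyte genes CST7, an inhibitor of cathepsins, fell (-0.79), while GZMB (0.68), CTSW (-0.59) and EOMES (-0.68) did not pass the threshold (edgeR, adjusted p = 0.280, 0.120 and 0.151). Of 13 macrophage and dendritic cell genes MRC1, the mannose receptor, rose (0.85), and CD14 (-0.98), CSF1R (0.35) and FLT3 (0.54) did not pass (adjusted p = 0.0586, 0.230 and 0.113). With casein 0 genes of these 3 lists were called by edgeR and 0 were at an unadjusted p of 0.05 or less.

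Markers of the epithelium and of muscle were set beside these lists. Of 18 villus enterocyte genes 3 rose with GLP-2, MEP1B, a brush border protease (log2 fold change 1.06), CDH1, the epithelial cadherin (0.90), and EPCAM, an epithelial adhesion molecule (0.68), and all 18 fold changes were positive (median 0.93). Of all genes 5.13% rose. DPP4, a brush border peptidase, had 1.20 ± 0.406 (edgeR, adjusted p = 0.0504). Of 12 smooth muscle genes 0 were called by edgeR and 5 were at an unadjusted p of 0.05 or less (median -1.07), with DES at -1.74, LMOD1 at -1.96, TPM2 at -1.14 and SMTN at -1.12 (adjusted p from 0.0748 to 0.104). With casein the enterocyte median was 0.04 and the smooth muscle median -0.72, with all 12 smooth muscle values negative, 0 genes of either list called by edgeR and 0 at an unadjusted p of at most 0.05. The part of these compartments in the values of LIMD2 and PTPRCAP was not tested.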

How the data were processed

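Jejunal mucosal RNA of 22 steers was sequenced as strand-specific libraries. According to the study's methods, the authors aligned reads to ARS-UCD1.2 with HISAT2 (2.0.5) and assigned them to genes with featureCounts (1.5.0-p3); the strand setting of the counting is not given in the sources used here. The authors deposited raw counts per gene, which are whole numbers, and FPKM values computed from them, which were used here for levels per length, ratios and as an alternative. No column of the deposited tables went unused and no pair of libraries was identical.

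LIMD2 and PTPRCAP, the gene lists (154 genes in 10 lists, 4 genes in 2 lists, 4 symbols not among the gene names) and the tests were chosen with earlier results of these data known. Named were the members, PTPRC, CD3E and MS4A1, per list the 4 genes with the smallest unadjusted p between GLP-2 and BSA, and per member the 5 genes of highest Spearman correlation. The result of 1 gene under this rule is not reported here. CORO1B, RPS6KB2, CD52, CORO1A by treatment, ILK, XBP1, SDC1, PRDM1 and, where a list had few calls, its other called genes (CSK, PTPN6) were named in addition after their values were seen. PAG1 matched 2 gene IDs, and that not described as pregnancy-associated was kept.

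In R 4.3.3, counts were filtered by filterByExpr in edgeR 4.0.16 (minimum count 10), TMM-normalized and compared by the quasi-likelihood test with Benjamini-Hochberg adjustment over all genes tested and a threshold of 0.05, pooled over the other factor, or with 4 treatment means for the contrasts within an infusion or injection and the interaction. The interaction was planned as a test, and its p is not given for LIMD2 and PTPRCAP because it contains the casein difference that chose them. log2 CPM used a prior count of 2. On simulated counts for GLP-2 against BSA (13759 genes), 41.2% of the 97 tested genes changed by 1 on the log2 scale were recovered. Of the 97 changed by 2, 89.7% were recovered. For the interaction (14913 genes) the shares were 3.03% of 99 and 44.9% of 98. Far fewer genes were changed than the 1881 called between GLP-2 and BSA, so these shares do not give the recovery in the data. Correlations were permuted within treatments. Alternatives were DESeq2 1.42.0, other scalings and filters, limma 3.58.1 on log2(FPKM + 1) or log2(FPKM + 0.1), the block, a gene length offset (loess span 0.3), covariates and leaving out each steer. Steers of the same block number resembled each other little (mean correlation of deviations 0.03 over 30 pairs, 13 of them over 0.1). Over 151 other pairs the mean was -0.01, with 55 of them over 0.1, and the difference was not tested. The block entered only an alternative fit, in which LIMD2 was not called between GLP-2 and BSA.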

Additional observations from a re-analysis of the deposited data

Results flagged for a closer look

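PTPRC in control replicate 2 lay far from the other control steers, at 9.39 log2 CPM (670.6 CPM) against 8.50 for the nearest, a gap of 0.860 of the range of the 5 control steers, above Dixon's critical value for that number of steers. Chance alone sets apart about 1 in 20 such groups, and this was 1 of 20 groups looked at (LIMD2, PTPRCAP, PTPRC, CD3E and MS4A1 in 4 treatments). LIMD2 in that steer (158.4 CPM) was the lowest of the control steers. Without it the GLP-2 difference of LIMD2 was -0.72 (edgeR, adjusted p = 0.0262).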

How the results depend on the processing

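The GLP-2 difference of LIMD2 (-0.71) stayed past the threshold in 11 of 13 alternatives. It did not with the replicate block (-0.69, adjusted p = 0.0559 in edgeR) nor with the B cell score as a term (-0.15, adjusted p = 0.999), and leaving out each steer gave -0.78 to -0.53. That of PTPRCAP (-0.40) was never called and turned to 0.0204 with the B cell score. Leaving out each steer gave -0.51 to -0.15 for it. The interaction, given without a test, stayed positive under each alternative, with 0.20 to 0.62 for LIMD2 and 1.23 to 1.47 for PTPRCAP (0.30 to 0.69 and 1.05 to 1.52 leaving out each steer). The casein differences kept their direction throughout, from -0.81 to -0.52 for LIMD2 and from -0.88 to -0.69 for PTPRCAP (-0.88 to -0.61 and -0.93 to -0.63 leaving out each steer). Both genes were chosen for a lower level with casein in these same libraries, so the kept direction is a description only.

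Genes called between GLP-2 and BSA numbered 1881, and 2999 in the DESeq2 Wald test, 689 with the replicate block, 1189 with the block and a gene length offset, 0 with the B cell score as a term (edgeR) and 634 to 3516 leaving out each steer (fewest without casein + GLP-2 replicate 3, most without control replicate 2). The block pairing changed no other call of LIMD2 or PTPRCAP. B cell genes called lower, a count added after seeing the data, were 14, and 8 where at least 10 counts were asked of every steer. Of 661 values of other named genes under alternatives, 552 kept direction and side of the threshold, 77 lost the call, 25 gained it and 7 changed sign. The last were PTPRC with GLP-2 (0.0769 with the block, 0.0857 and 0.0882 in limma with a pseudocount of 1 and 0.1, and -0.117 to 0.0967 leaving out each steer), CD3E with casein (-0.139 to 0.0831 leaving out each steer), and GZMB (-0.00475) and CD14 (0.35) with the B cell score. The cause of these changes was not tested. The depth of 8809666 counts and more left at least 94 counts of PTPRCAP and 815 of LIMD2 per library.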
